A study of Homo sapiens with 42 samples.

Results

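The open chromatin of 2 untreated cancer cell lines was compared: A375, an established human melanoma line, and DU4475, an established human breast carcinoma line. The 6 samples used for the comparison, of 42 in the series, were the 3 A375 and 3 DU4475 samples that received only the solvent DMSO for 4 h, the negative control of the study. All 6 are labelled wild type, and the replicates are labelled as biological. Each cancer type is represented by a single line, so a difference between the lines cannot be told apart from one between melanoma and breast carcinoma. Accessibility was measured by ATAC-seq, in which a transposase cuts DNA that is free of nucleosomes, and the data were the list of peaks that the authors called in each sample. The 3 samples of A375 and of DU4475 treated with FHT-1015, an inhibitor of the BAF remodelling ATPases, and the 15 DMSO samples of the 5 other lines were not used to call a region line-only.

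Regions were 500 bp windows around the peak summits of all 42 lists. A region was called in a list that had a peak sharing 100 bp or more with it. A375-only regions were called in all 3 A375 lists and in no DU4475 list, and DU4475-only regions the other way round. Of 538383 regions called in at least 1 of the 6 lists, 27188 were A375-only (5.05%) and 24062 were DU4475-only (4.47%), while 26533 were called in all 6. Just outside the rule, 7141 regions had 3 A375 lists and 1 DU4475 list and 25867 had 2 A375 lists and no DU4475 list. In the other direction, 8642 regions had 1 A375 list and 3 DU4475 lists, and 42095 had 2 DU4475 lists and no A375 list.

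Enhancers and promoters lose their nucleosomes where transcription factors bind, so the set of open regions differs between cell types. Melanocytes arise from the neural crest, and SOX10, PAX3 and MITF are the regulators that set their identity. MITF is read from several starts, of which the one furthest downstream is the start used in melanocytes. Epithelial cells are held together by E-cadherin, the product of CDH1, and by EPCAM, while ESRP1 and ESRP2 set their splicing and the GRHL and OVOL factors keep their genes open. ZEB1, ZEB2, SNAI1, SNAI2 and TWIST1 are repressors or regulators of the mesenchymal state, and ZEB and SNAI proteins bind an E-box with the letters CAGGTG.

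The sequences upstream of 5 starts that were open in 1 line only are shown as examples. These are the starts of the regulators MITF and FOXD3, of HOOK1 and SLC2A8, among the strongest in DU4475, and of the epithelial gene ELF3. Each sequence is the 250 bases before the start given by RefSeq (GRCh38.p14), 5′ to 3′ on the strand of the gene. MITF stands at chr3:69936342-69936591 on the plus strand and FOXD3 at chr1:63322317-63322566 on the plus strand, and both starts were open in A375 only. HOOK1 stands at chr1:59814699-59814948, ELF3 at chr1:202010337-202010586 and SLC2A8 at chr9:127396919-127397168, all on the plus strand and open in DU4475 only. Capitals mark the SOX letters ACAAAG in FOXD3 and the E-box CAGGTG in HOOK1, ELF3 and SLC2A8, on either strand, so CTTTGT and CACCTG are the same letters read on the other strand. The MITF stretch held neither and is in lower case throughout. HOOK1, ELF3 and SLC2A8 all hold CAGGTG, but only 35.6% of the DU4475-only starts examined did, so they do not stand for all of these.
MITF: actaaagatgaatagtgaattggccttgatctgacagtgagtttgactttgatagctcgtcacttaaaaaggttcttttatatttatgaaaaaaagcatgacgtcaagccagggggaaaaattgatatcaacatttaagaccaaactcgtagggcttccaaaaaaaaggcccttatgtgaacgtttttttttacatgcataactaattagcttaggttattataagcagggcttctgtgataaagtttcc
FOXD3: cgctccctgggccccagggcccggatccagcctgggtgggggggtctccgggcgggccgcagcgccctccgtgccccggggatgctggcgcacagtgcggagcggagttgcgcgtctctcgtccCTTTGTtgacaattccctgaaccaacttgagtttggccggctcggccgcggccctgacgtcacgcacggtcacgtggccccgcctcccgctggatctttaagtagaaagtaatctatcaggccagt
HOOK1: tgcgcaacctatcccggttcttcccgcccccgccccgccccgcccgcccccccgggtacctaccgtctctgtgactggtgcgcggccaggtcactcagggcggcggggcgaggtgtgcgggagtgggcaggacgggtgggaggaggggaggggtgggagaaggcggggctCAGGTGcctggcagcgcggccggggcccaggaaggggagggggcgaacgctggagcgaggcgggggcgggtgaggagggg
ELF3: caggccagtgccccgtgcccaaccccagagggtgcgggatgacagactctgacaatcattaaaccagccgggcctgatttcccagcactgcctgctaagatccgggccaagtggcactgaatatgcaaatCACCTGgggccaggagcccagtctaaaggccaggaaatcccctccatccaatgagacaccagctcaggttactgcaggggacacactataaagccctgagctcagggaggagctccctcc
SLC2A8: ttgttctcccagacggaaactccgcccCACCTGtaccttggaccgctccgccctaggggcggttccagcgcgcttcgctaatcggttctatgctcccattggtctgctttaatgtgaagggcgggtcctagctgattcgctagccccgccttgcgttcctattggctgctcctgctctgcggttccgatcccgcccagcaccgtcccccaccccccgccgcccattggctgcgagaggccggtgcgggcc

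The lists held 181865 to 227265 peaks in A375 and 220533 to 239670 in DU4475. The means were 197865 ± 25494 and 228524 ± 9951 (SD, n = 3), and an exact two-sided permutation test of the log2 numbers gave p = 0.3, where 0.1 is the smallest p that 3 against 3 samples can give. The background pileup, recovered from the deposited values as a stand-in for depth, was 0.606 to 0.901 in A375 and 1.98 to 2.40 in DU4475, so the DU4475 lists came from the deeper background with no overlap between the groups. Replicate 3 of A375 had 26365 peaks with −log10 q of at least 5, against 48864 to 65602 in the 5 other samples. The share of summits within 1 kb of a gene start was 18.7 ± 2.58% in A375 and 17.2 ± 0.576% in DU4475 (SD, n = 3; exact permutation test, p = 0.4). Among the 10000 strongest peaks of each list, that share was 60.4 ± 3.05% in A375 and 86.5 ± 0.947% in DU4475 (SD, n = 3; exact permutation test, p = 0.1), so its direction depended on which peaks were counted. The lists came from bulk samples, in which a region open in fewer cells and a region less open in each cell cannot be told apart.

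Most of the regions that set the lines apart lay far from gene starts. Of the A375-only regions 7.40% were within 1 kb of a start and 79.9% were more than 10 kb away, and of the DU4475-only regions 7.49% and 77.9% were. Over all regions called in at least 1 of the 6 lists these shares were 7.04% and 80.3%, so in distance the line-only regions resembled called regions at large. Of the regions called in all 6 lists, 65.9% were within 1 kb of a start. Strong regions, those with −log10 q of at least 5 in all 3 lists of their line, numbered 5975 in A375 (1.11% of the called regions) and 6567 in DU4475 (1.22%). Without A375 replicate 3 the strong A375-only regions numbered 15086. Some strong regions lay on the flank of a broad interval that both lines shared, so the descriptions below rest on strong regions whose interval held no peak of the other line. These separate regions numbered 4506 in A375 (0.837%) and 4375 in DU4475 (0.813%). Neighbouring windows could share a peak, and they stood for 3733 and 3404 separate peaks of replicate 1.

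Some regulators of the melanocyte lineage had peaks in A375 at places where DU4475 had none. SOX10, the neural crest factor that marks melanoma, had a peak at its upper end (chr22, 37984555) in all 3 A375 lists, with fold enrichments over background of 3.28, 2.90 and 2.71 in replicates 1 to 3, and none in DU4475. All folds here are the authors' values for the peak and describe it within its own list. SOX10 had no listed start, so a peak at either of its ends was counted, whichever of them is the start. A peak was also listed within 1 kb of the other end of SOX10 in DU4475 replicates 1 and 3, with folds of 2.60 and 2.54. By the count over either end, the gene as a whole was therefore not open in 1 line only. SOX10 was the nearest gene of 4 A375-only regions and of no DU4475-only region, but none of the 4 passed the strong threshold in all 3 lists.

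MITF, the master regulator of pigment cells, had 23 A375-only regions and no DU4475-only region. Of these, 11 were strong and separate and stood for 9 peaks. The start used in melanocytes, at chr3 69936592, had folds of 4.42, 3.54 and 2.27 in the 3 A375 replicates and no peak in any DU4475 list. The upstream start of the longer form, at 69739464, was called in all 6 lists, and the highest folds at MITF starts were 8.88, 9.26 and 7.14 in A375 and 12.2, 6.83 and 10.4 in DU4475. The 2 lines therefore differed at the downstream start of the gene and not at the upstream one. The strongest of the separate regions, chr3:70040312-70040811, lay 104 kb beyond the downstream start with folds of 8.39, 9.40 and 7.78. The map of calls around MITF shows A375-only regions on both sides of that start.

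**Figure D1:**
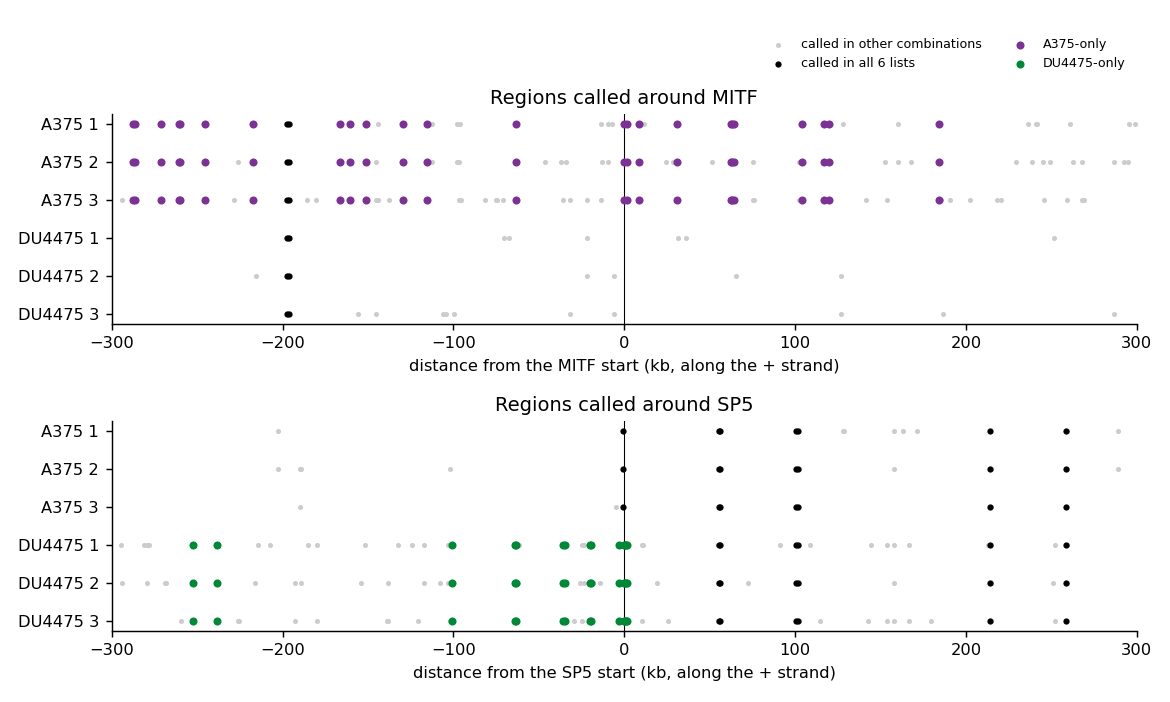
Regions called in each of the 6 DMSO samples within 300 kb of the downstream MITF start (top) and of the SP5 start (bottom), 1 point per region and sample, by distance from the start in kb along the plus strand. Purple points are A375-only regions, green points DU4475-only regions, black points regions called in all 6 lists and grey points all other combinations. Purple points occur around MITF and green points around SP5.

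A gene was counted as open in 1 line only when all 3 lists of that line and none of the other had a peak at any of its starts. In the list of 20 melanocyte and neural crest regulators, 5 genes were open in A375 only and none in DU4475 only. Over all 19974 genes the shares were 3.19% and 2.41%. Another 9 of the 20 were open in both lines, against 57.4% of all genes. PAX3 had folds of 8.74, 5.78 and 6.59 in A375, FOXD3 had 4.55, 4.10 and 4.83, and the endothelin receptor gene EDNRB had 6.79, 5.45 and 5.30, each with no peak in DU4475. SNAI2, the neural crest repressor of CDH1, had 11.1, 10.8 and 7.85 and SOX5 had 5.41, 6.33 and 3.90, again with none in DU4475. The A375 lists held a peak at 17 to 19 of the 20 genes and the DU4475 lists at 10 or 11, so the groups did not overlap. Over all genes the shares with a peak did overlap, at 69.5% to 74.1% in the A375 lists and 71.7% to 72.2% in the DU4475 lists. Members nearest to any A375-only region numbered 18 (43.6% of all genes were), and members nearest to any DU4475-only region 17 (41.1% of all genes). In lists thinned to a common background these became 14 and 6, against 19.3% and 8.22% of all genes. Members nearest to at least 1 separate region numbered 12 in A375 and 11 in DU4475, against 12.7% and 12.5% of all genes, so both lines had such regions around these genes. The number of separate regions was 46 in A375 and 19 in DU4475. ETS1 had 6 in A375 and 1 in DU4475, TFAP2B 4 and 0, and SOX9, which also acts in many epithelia, 1 and 4.

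The pigment genes themselves gave a divided picture. In the list of 20 pigmentation genes and MITF targets, no gene was open in A375 only and 1, the ion exchanger gene SLC24A5, was open in DU4475 only with folds of 3.02, 2.94 and 3.98. Over all genes these shares were 3.19% and 2.41%. TRPM1, a channel gene with several starts, had 1 start open in DU4475 only, at chr15 31101725, with 4.24, 2.82 and 3.31. The starts of TYR, TYRP1, MLANA and OCA2 had no peak in any of the 6 lists. TYR, the gene of tyrosinase, which catalyses the rate-limiting step of melanin synthesis, had 2 separate A375-only regions away from its start. The region chr11:89168299-89168798, 9.33 kb from the start and outside the gene, had folds of 11.9, 14.6 and 7.93, and it was also called in all 3 lists of the uveal melanoma line 92-1. DCT, which makes another enzyme of melanin synthesis, had peaks of 10.1, 10.8 and 9.02 in DU4475 and 1 peak of 3.37 in A375 replicate 2. PMEL, a melanosome structural protein, was open in all 6 lists, with folds of 4.72, 5.62 and 4.00 in A375 and 7.20, 8.14 and 7.31 in DU4475. The nearest end of PMEL lies beside CDK2, whose folds in DU4475 were the same values, so the 2 genes share a peak. Separate regions were nearest to 5 members in each line, against 12.7% of all genes in A375 and 12.5% in DU4475.

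Epithelial genes had open starts more often in DU4475. CDH1, the gene of E-cadherin, had folds of 7.53, 7.97 and 7.49 in DU4475, while in A375 it had 1 peak of 2.46 in replicate 1 and none in replicates 2 and 3. By the rule this single peak kept CDH1 out of the genes open in DU4475 only, although the region chr16:68737482-68737981 inside the gene, 0.44 kb from its lower end, was DU4475-only. CDH1 also held an A375-only region, chr16:68786569-68787068, 48.7 kb from the nearest end. In the list of 30 epithelial genes, 6 were open in DU4475 only (2.41% of all genes) and none in A375 only. EPCAM, an epithelial adhesion molecule, had folds of 11.4, 13.2 and 13.1 and no peak in A375. The splicing regulator ESRP2 had 5.34, 6.12 and 6.23, the ETS factor ELF3 5.48, 4.32 and 4.06, and the keratin KRT19 3.54, 2.79 and 2.75. The protease gene PRSS8 had 4.56, 2.91 and 4.31. By the rule, all 6 genes were without a peak in the 3 A375 lists. In the FHT-1015 samples of A375, ELF3 had a peak in all 3 lists and EPCAM in 2.

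Of the 30 epithelial genes, 27 to 28 had a peak in the DU4475 lists (71.7% to 72.2% of all genes) and 13 to 17 in the A375 lists (69.5% to 74.1% of all genes). The folds summed over the list ran from 192 to 203 in DU4475 and from 56.7 to 82.6 in A375. Such sums are not on one scale across lines, because the folds summed over the 34 ribosomal protein genes, all open in all 6 lists, were also higher in DU4475 (383 to 396, against 199 to 248.8 in A375). Not all epithelial genes followed. CLDN4 had folds of 3.19, 4.52 and 3.12 in A375 and 1 peak of 2.44 in DU4475. KRT8 and KRT18, keratins of simple epithelia, were open in all 6 lists, and GRHL2 had a peak in 2 A375 and 3 DU4475 lists. Separate regions were nearest to 3 epithelial members in A375 and to 9 in DU4475, against 12.7% and 12.5% of all genes. The protease gene ST14 had 2 of those regions in DU4475.

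**Figure D2:**
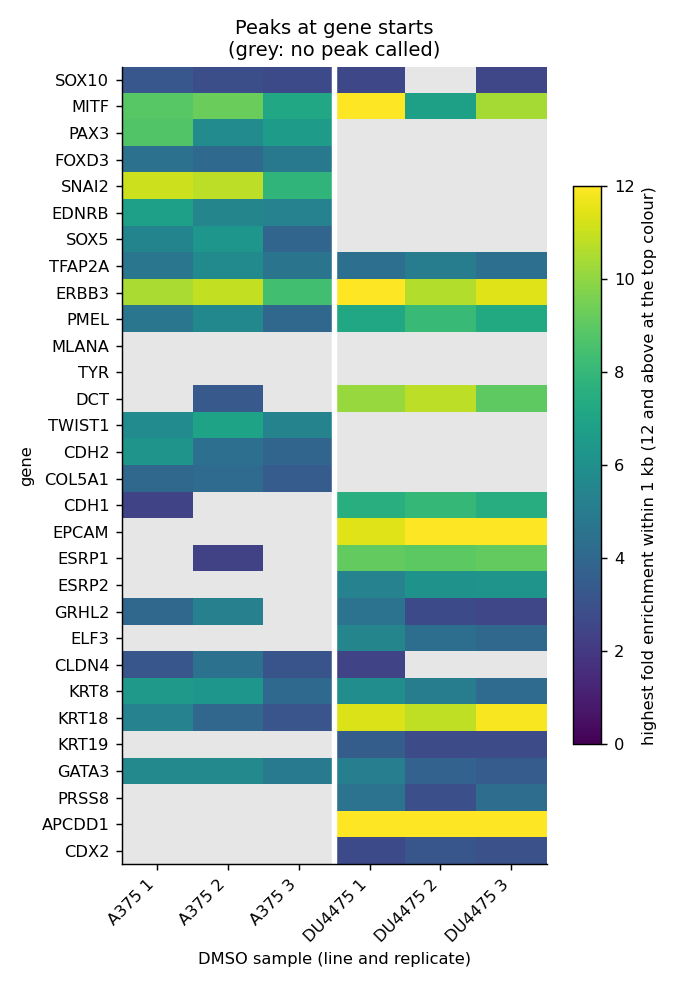
Highest fold enrichment within 1 kb of a start (either gene end where no start is listed) in the 3 A375 and 3 DU4475 DMSO samples, for marker genes and for some members with a start open in 1 line only. Grey is no peak, and values of 12 and above have the top colour. PAX3, FOXD3, SNAI2, EDNRB and SOX5 are grey in DU4475, and EPCAM, ESRP2, ELF3, KRT19 and APCDD1 are grey in A375.

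Mesenchymal genes had open starts more often in A375. Against 3.19% and 2.41% of all genes, 4 of the 24 genes in the list were open in A375 only and none in DU4475 only. These were SNAI2, already described, TWIST1 with folds of 5.79, 6.96 and 5.36, CDH2, the gene of N-cadherin, with 6.20, 4.39 and 3.93, and the collagen gene COL5A1 with 4.03, 4.22 and 3.52. A375 lists held a peak at 20 to 23 of the 24 genes and each DU4475 list at 16, against 69.5% to 74.1% and 71.7% to 72.2% of all genes. Vimentin (VIM), an intermediate filament of mesenchymal cells, had 7.73, 7.56 and 6.43 in A375 and 1 peak of 2.26 in DU4475. ZEB1 was open in all 6 lists, with folds of 4.66, 6.77 and 3.64 in A375 and 8.91, 6.97 and 5.17 in DU4475. Its relative ZEB2 had peaks at its start in 2 A375 lists and none in DU4475, but 4 separate regions in DU4475 and 1 in A375. Separate regions were nearest to 10 members in A375 and 6 in DU4475, against 12.7% and 12.5% of all genes. The tenascin gene TNC had 5 such regions in A375, and TGFBI had 4, with none in DU4475 for either.

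Breast lineage genes had line-only chromatin in both lines. In the list of 20 breast lineage transcription factors no gene was open in DU4475 only over all its starts, and 2 were open in A375 only. Over all genes these shares were 2.41% and 3.19%. The 2 included SOX11, with folds of 3.49, 4.45 and 4.02. Members nearest to any line-only region numbered 16 in DU4475 and 16 in A375, against 41.1% and 43.6% of all genes. In the thinned lists they numbered 4 in DU4475 and 10 in A375, against 8.22% and 19.3% of all genes. Separate regions were nearest to 11 members in DU4475 and 6 in A375, against 12.5% and 12.7% of all genes. FOXA1, a pioneer factor of hormone-responsive epithelia, had 2 in DU4475, at chr14:37583738-37584237 and the adjoining window, with folds of 7.83, 7.80 and 7.61. MYB had 3 in DU4475 and none in A375. TBX3 had 4 in A375 and 2 in DU4475, so the list did not point to a single line.

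GATA3, the factor that directs luminal breast cells, was open in both lines at different starts. The starts at chr10 8053641 and 8054688 were open in A375 only, with folds of 5.63, 5.65 and 4.88 at the lower one and 5.44, 5.09 and 4.15 at the other. The starts at 8045333 and 8060457 were open in DU4475 only, with 3.14, 2.72 and 2.84 and with 5.12, 3.78 and 3.50. The 2 A375 starts thus lie between the 2 DU4475 starts. All 4 separate regions nearest to GATA3 were DU4475-only, at 255 kb to 1037 kb from its nearest start.

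DU4475-only regions were common around WNT target genes. WNT signals stabilise β-catenin, which binds TCF and LEF factors and switches on genes such as AXIN2, SP5 and APCDD1, several of which feed back on the pathway. Of 20 WNT targets, 15 were nearest to at least 1 separate DU4475-only region and 5 to a separate A375-only region, where 12.5% and 12.7% of all genes were. Their regions numbered 36 in DU4475 and 12 in A375. Members nearest to any line-only region numbered 19 in DU4475 and 13 in A375, against 41.1% and 43.6% of all genes. In the thinned lists they numbered 11 and 7, against 8.22% and 19.3% of all genes. Each DU4475 list held a peak at all 20 genes, and the A375 lists at 15 to 18, against 71.7% to 72.2% and 69.5% to 74.1% of all genes. APCDD1, an inhibitor of WNT receptors, was 1 of 2 members open in DU4475 only (2.41% of all genes were), with folds of 12.03, 13.05 and 13.15. The other was the intestinal factor CDX2, with 2.69, 3.23 and 2.96.

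SP5, a zinc finger gene switched on by β-catenin, had 14 DU4475-only regions and no A375-only region, although its start was called in all 6 lists. Of these, 5 were separate, and chr2:170679467-170679966, 35.6 kb upstream, had folds of 9.79, 6.16 and 8.41. PROX1 had 6 separate DU4475-only regions and 1 separate A375-only region. Its region chr1:213783192-213783691 was among the 10 strongest of DU4475, with folds of 12.6, 13.2 and 13.1. ASCL2, a stem cell factor of the gut, had 3 in DU4475 and none in A375. TNFRSF19 went the other way, with 5 in A375 and 1 in DU4475, and MYC had 3 in each line.

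Among the remaining lists, AP-1 genes were mostly open in both lines. Of 16 members, 13 genes were open in all 6 lists (57.4% of all genes were). BATF, with folds of 3.68, 4.04 and 3.71, was the 1 gene open in DU4475 only (2.41% of all genes were). Members nearest to a separate region numbered 4 in A375 and 3 in DU4475, against 12.7% and 12.5% of all genes. Of 16 targets of YAP and TEAD, 14 genes were open in both lines and none in 1 line only. Here separate regions were nearest to 7 members in A375 and 4 in DU4475, against the same shares of all genes. CCN1 had 2 in A375 with folds of 11.6, 10.03 and 6.98, whereas its relative CCN2 had 3 in DU4475, the strongest with 14.4, 12.8 and 12.2. The 2 related genes thus had line-only chromatin in opposite lines. All 34 ribosomal protein starts were open in both lines, against 57.4% of all genes.

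Blood cell markers were examined as genes of cells that neither line comes from. Of 14 markers, 1 gene (CD68, with folds of 6.48, 4.40 and 4.73) was open in A375 only and none in DU4475 only, against 3.19% and 2.41% of all genes. The starts of CD3E and SPI1 were open in both. The folds of the 14 markers summed to 36.3 to 41.0 in A375 and 22.6 to 41.97 in DU4475. PTPRC, the pan-leukocyte gene, had 31 DU4475-only regions but 1 separate strong one, and TAL1 had no peak at its start in any list. Separate regions were nearest to 1 member in A375 and 2 in DU4475, against 12.7% and 12.5% of all genes.

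**Figure D3:**
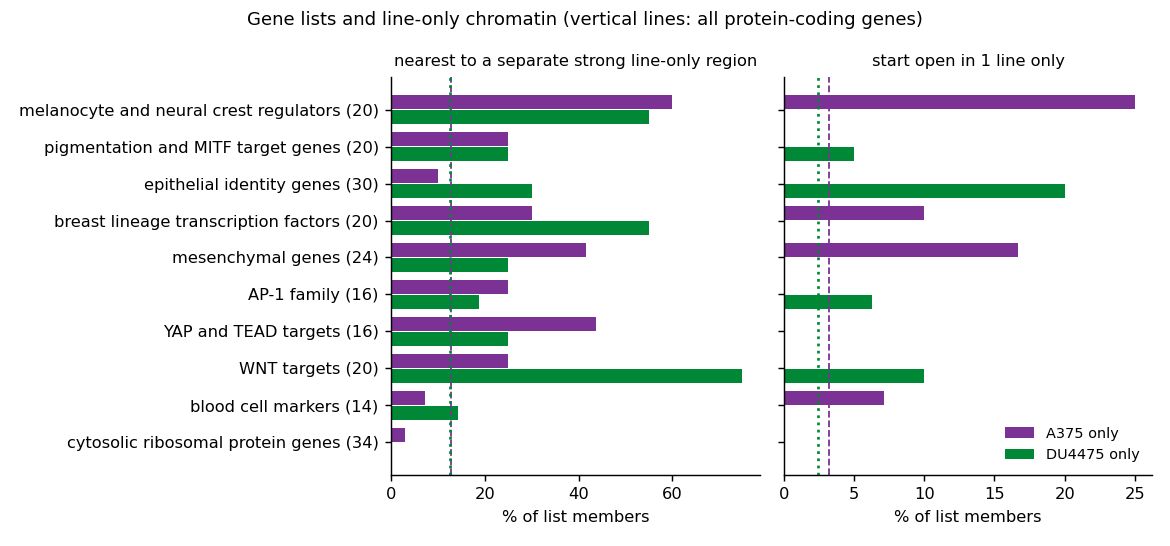
Percent of the members of each gene list (number of genes in brackets) that were nearest to a separate strong region of A375 (purple) or DU4475 (green) on the left, and whose start was open in 1 line only on the right. Vertical lines give the share over all 19974 protein-coding genes, dashed for A375 (12.7% and 3.19%) and dotted for DU4475 (12.5% and 2.41%). The longest green bar on the left is that of WNT targets, 15 of 20, and the longest purple bar on the right that of melanocyte regulators, 5 of 20.

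Among all genes, those with most separate A375-only regions were SORCS1, a sorting receptor of neurons, with 13, and GPC6, MITF and TENM3 with 11 each. SORCS1 had 42 A375-only regions in all and no DU4475-only region, and its start had folds of 6.45, 5.92 and 5.28 in A375. CNTNAP2 and ZFHX3 had 10 each, and the muscle and neural crest factor MEF2C had 9. MEF2C was open in A375 only at 4 listed starts, with folds of 8.56, 9.35 and 6.75 at the strongest. In DU4475 the histone deacetylase gene HDAC4 led with 15, followed by the ARF regulator AGAP1 and the corepressor BCOR with 11 each, and KIF26B and TNR with 10 each. HDAC4, AGAP1, BCOR and KIF26B were open in both lines by the count over all their starts, where for AGAP1 and KIF26B either gene end was used. That count does not show that the same start was open in both lines. Neighbouring windows could share a peak, so the order by peaks of replicate 1 was different. In A375, SORCS1 and MITF stood for 9 peaks each. TENM3, ZFHX3, MEF2C and ADCY8 stood for 8, and GPC6 and CNTNAP2 for 7. In DU4475, HDAC4 stood for 12 peaks and BCOR for 9. KIF26B, EIPR1, GSE1 and PLA2G4A stood for 8, and AGAP1 and TNR for 7. The number of regions was not divided by the length of a gene or of its surroundings.

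The strongest single A375-only region lay inside TNR, at chr1:175673381-175673880 and 70.0 kb from the nearest end, with folds of 12.3, 15.4 and 9.69. The one outside TRIM36 at chr5:115087386-115087885 had 12.7, 13.9 and 10.9 and was called in no DMSO list of the 5 other lines. The region inside TMEM178B at chr7:141127911-141128410, with 13.4, 14.7 and 10.02, was likewise absent from those 15 lists, but 2 of the 3 treated DU4475 lists held it. None of the 10 strongest A375-only regions was within 1 kb of a start, while 4 of the 10 strongest DU4475-only regions were. The strongest of DU4475, chr1:59814056-59814555, lay 0.643 kb upstream of HOOK1, a cargo adaptor on microtubules, with folds of 14.8, 14.5 and 13.8. The region at SLC2A8, a sugar transporter gene, at chr9:127396859-127397358 had 13.9, 12.2 and 12.6. The region at STS, the steroid sulfatase gene, at chrX:7147474-7147973 had 14.1, 13.5 and 13.1.

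At gene starts, 638 genes were open in A375 only (3.19%) and 481 in DU4475 only (2.41%), while 11472 (57.4%) were open in all 6 lists. Among the A375-only starts, the strongest by their weakest replicate was ZNF18, with 11.0, 11.2 and 11.1. It was followed by CBLN1, the adhesion receptor gene ADGRV1 with 12.9, 12.2 and 8.97, and SLITRK5 with 9.97, 10.7 and 7.78. SLITRK5 and LOC124900338 share a peak. The strongest DU4475-only starts were HOOK1, SLC2A8, LARGE2, the neighbours PUDP and STS on chromosome X, which share a peak, and GALNT3. ITGB4, the integrin of epithelial hemidesmosomes, had 13.5, 11.9 and 12.5. ITGB4 also had a peak in all 3 lists of A375 with FHT-1015, and HOOK1 in 2 of them. CDKN2B, an inhibitor of cyclin-dependent kinases, had 14.7, 14.96 and 12.5, with no peak in A375. With only peaks of −log10 q of at least 5 counted, the starts open in 1 line only numbered 406 in A375 and 951 in DU4475, so which line had more of them depended on the threshold.

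The E-box of ZEB and SNAI proteins was more frequent at DU4475-only starts, a comparison given here as shares with no test. The letters CAGGTG, read on both strands in the 300 bp from 250 before to 50 after 1 listed start per gene, occurred in 125 of 351 DU4475-only starts (35.6%) and in 67 of 500 A375-only starts (13.4%). The share was 17.6% of starts open in both lines and 19.7% of all listed starts. HOOK1, ELF3 and SLC2A8, shown above, are among the DU4475-only starts that hold it. The GC content had medians of 60.7% and 61.7%, and CG dinucleotides had medians of 12 and 20 per window, so the DU4475-only starts held fewer CG pairs. The AP-1 letters TGANTCA were in 7.40% of A375-only starts, 3.70% of DU4475-only starts and 5.75% of all starts. They were also in 10.2% of starts open in neither line. The ETS letters CCGGAAG were in 10.2% and 5.70%, below the 21.0% of starts open in both lines. The SOX letters ACAAAG were in 15% and 17.9%, against 12.8% of all starts and 20.9% of starts open in neither line. Of the letters that MITF binds, CATGTG was in 8.20% and 12.3% and CACGTG in 8.40% and 6.84%, so they went in opposite directions. Over all starts, CATGTG was in 8.20% and CACGTG in 8.74%, and over starts open in neither line in 13.8% and 5.26%. The TCF and LEF letters ATCAAAG were in 2.20% and 1.99%, against 1.90% of all starts and 3.74% of starts open in neither line. A match is a description of the letters and not a bound site, and regions away from starts were not searched.

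**Figure D4:**
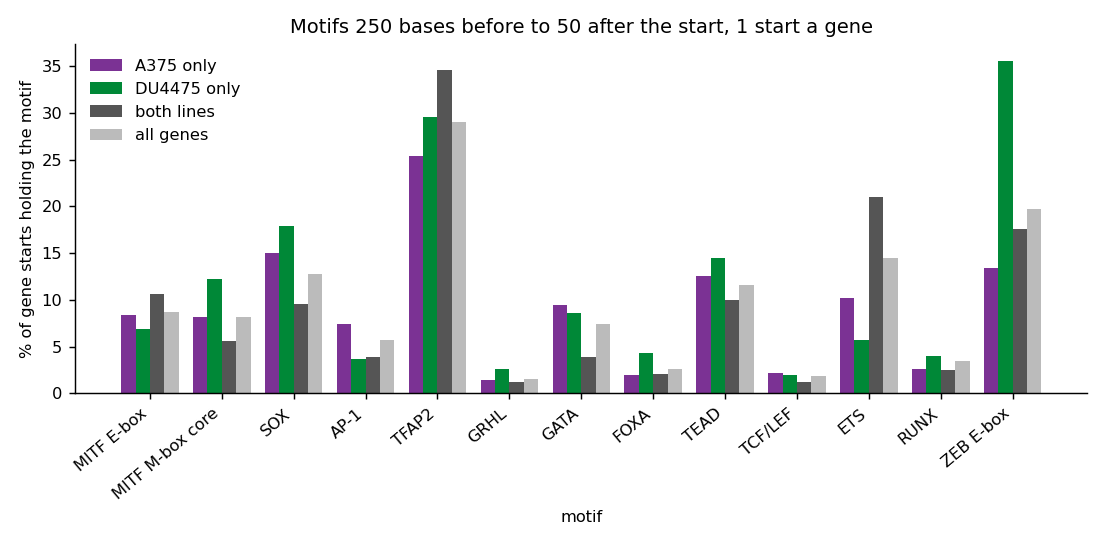
Percent of listed gene starts, 1 per gene, that hold each of 13 motifs within 250 bases before to 50 after the start, for starts open in A375 only (purple, 500 genes), in DU4475 only (green, 351 genes), in both lines (dark grey) and all genes (light grey). The ZEB E-box, CAGGTG, is in 35.6% of the DU4475-only starts and 13.4% of the A375-only starts.

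The line-only regions were then looked up in samples whose calls did not enter the line-only rule. Their summits did help to place the windows, so the lookup was repeated on windows placed from the 6 compared lists alone, an alternative chosen after seeing the data. In the FHT-1015 samples, 75.3% of the separate A375-only regions were called in all 3 A375 lists and 85.2% in none of the 3 DU4475 lists. Of the separate DU4475-only regions, 77.7% were called in all 3 treated DU4475 lists and 81.6% in none of the treated A375 lists. Over all line-only regions, weaker ones included, 37.2% of the A375-only and 41.6% of the DU4475-only ones were called in all 3 treated lists of their own line, and 83.9% and 73.0% in none of the other. Of the genes open in 1 line only, 64.4% of the 638 A375-only genes had no peak in any treated DU4475 list and 43.7% of the 481 DU4475-only genes had none in any treated A375 list. The log2 of the percent of A375-only regions called over the percent of DU4475-only regions called was 2.40 ± 0.015 in treated A375 and −3.38 ± 0.116 in treated DU4475 (SD, n = 3), a difference of 5.78 with no overlap. An exact two-sided permutation test gave p = 0.1, the smallest that this design allows. On windows of the 6 lists alone the difference was 5.79 (exact permutation test, p = 0.1). Among the separate regions, 81.4% to 96.1% of the A375-only ones were called in each treated A375 sample and 4.82% to 6.37% in each treated DU4475 sample.

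In the DMSO samples of other lines, with any listed peak counted, A375-only regions were most often found in 92-1, the other melanoma line of the series. All 3 lists of 92-1 held 26.5% of the separate A375-only regions, and those of RD (rhabdomyosarcoma) held 22.8%, MV411 (leukaemia) 19.4%, 22RV1 (prostate) 13.3% and HCT116 (colorectal) 12.8%. For the separate DU4475-only regions the order was 20.6% in 22RV1, 14.2% in MV411, 10.4% in RD, 8.55% in HCT116 and 4.21% in 92-1. With only peaks of −log10 q of at least 5 counted, samples of 92-1 held 12.1% to 34.0% of the separate A375-only regions. Those of MV411 held 18.7% to 19.8%. Gene starts gave another order. Of the 638 A375-only genes, 77.3% were open in all 3 lists of 22RV1, 65.2% in RD, 56.7% in 92-1, 49.8% in MV411 and 30.4% in HCT116. The lines also differed at the regions called in all 6 compared lists. On average DMSO samples of RD held 85.9% of these, 22RV1 76.9%, MV411 69.6%, HCT116 66.1% and 92-1 62.6%. None of the orders above was corrected for this difference. The log2 ratio over all line-only regions was 1.03 ± 0.033 in 92-1, 0.586 ± 0.074 in MV411, 0.391 ± 0.142 in HCT116, 0.372 ± 0.017 in RD and −0.440 ± 0.055 in 22RV1 (SD, n = 3). HCT116 and RD did not differ beyond their spread. The 92-1 samples exceeded the 12 samples of the other 4 lines by 0.800 on average, with all 3 above every other sample (exact two-sided permutation test, p = 0.0044), and 3 samples of 1 line are not separate lines. On windows of the 6 lists alone the difference was 0.812 (exact permutation test, p = 0.0044). Of the separate regions, 9.52% of the A375-only and 17.2% of the DU4475-only ones were called in none of the 15 lists. Peaks of A375, DU4475 and 92-1 are named without the word small, which the names of the 4 other lines carry, and the part of this difference in the result was not tested.

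**Figure D5:**
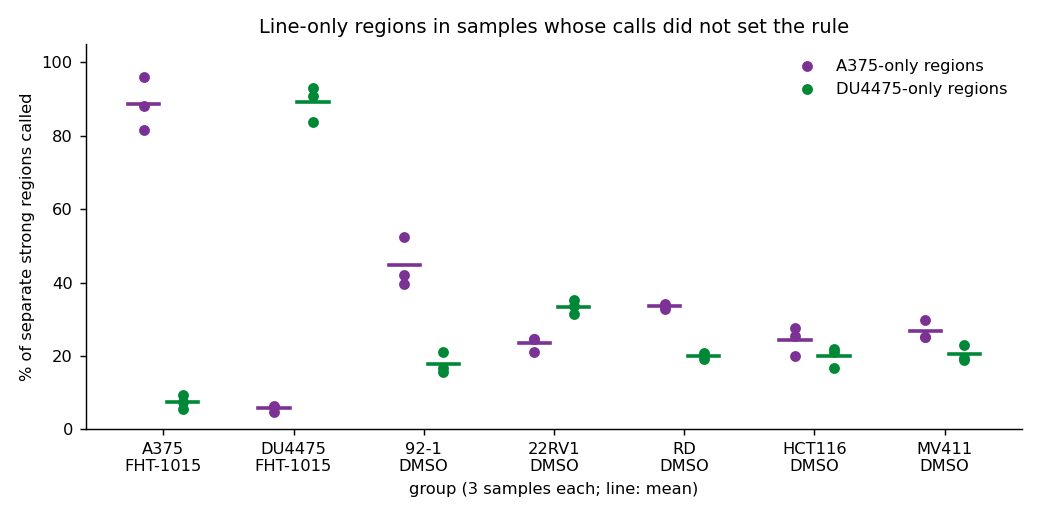
Percent of the separate strong A375-only regions (purple) and DU4475-only regions (green) called in each sample whose calls did not enter the line-only rule. Points are samples, 3 per group, and bars their means. The purple points lie at 81.4% to 96.1% in treated A375 and at 39.7% to 52.3% in 92-1.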

How the data were processed

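ATAC-seq peak lists of 42 samples, of which 6 were compared, are in hg38 coordinates and name Bowtie2, Picard and MACS2, per the submitters' processing notes, with no versions. Peaks were called per sample. The deposited fold is a ratio to the background, and p and q are deposited as −log10 values. Lists reach down to −log10 p of 2.00, so a threshold of 5 on −log10 q marks strong peaks.

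Windows of 500 bp were placed around the summits of all 42 lists, strongest first. Gene starts were those of RefSeq (GRCh38.p14; 15812 genes), or either gene end (4162 genes). Background pileups were solved from fold and p, with whole pileups for 100% of peaks within a tolerance of 0.01 on −log10 p, and lists were also thinned to a common background. Replicates shared under 0.1% of identical intervals. Tests were exact permutation tests (scipy 1.17.1), and the scripts were tested on simulated lists. The members and lists were chosen with earlier results of these data known. Named genes were SOX10, CDH1, list members with most strong regions or with a start open in 1 line only, the 12 genes with most regions and the 10 strongest regions and starts of each line, here from separate regions, a criterion chosen after seeing the data. Other named genes were chosen after their values were seen. Some named members are not reported here.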

Additional observations from a re-analysis of the deposited data

How the results depend on the processing

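The lower number of peaks in A375 was reversed in lists thinned to a common background, where the log2 difference was 0.724 (A375 minus DU4475; exact permutation test, p = 0.2). The gene-start share was reversed with strong peaks (−8.39 percentage points), with the 10000 strongest peaks (−26.2) and in thinned lists (−25.7). With strong peaks alone, 7774 regions were A375-only and 9063 DU4475-only, and thinned lists gave 7868 and 2721. An overlap of 250 bp left 15968 DU4475-only regions. Merged intervals gave 3714 and 3396 strong regions, and the separate criterion left 4375 in DU4475, both alternatives added after seeing the data. Leaving out 1 sample gave 29229 to 41730 A375-only regions (the highest without A375 replicate 3), 26021 to 39126 DU4475-only regions (36352, 38803 and 39126 without DU4475 replicates 1, 2 and 3), 6435 to 15086 strong A375-only regions and 588 to 742 DU4475-only starts (the highest without A375 replicate 2). Strong peaks alone gave 406 and 951 starts. Of the 209 different genes in the 10 gene lists, 121 in A375 and 123 in DU4475 were nearest to a line-only region. These numbers fell to 62 and 79 with strong regions, 77 and 51 in thinned lists and 52 and 63 with separate regions. The shares of all genes fell as well, from 43.6% and 41.1% to 16.4% and 18.1%, 19.3% and 8.22%, and 12.7% and 12.5%. Strong peaks, thinned lists and left-out samples bring in fewer peaks or samples by construction, and the cause of the reversals was not tested. A replicate block leaves the mean differences as they are by construction and changes only p: it gave p = 0.5 for the peak number (log2 difference −0.215), 0.75 for the gene-start share (1.53 percentage points) and 0.25, the smallest possible, for the treated samples (5.78; exact sign-flip tests). The replicate numbers did not pair the samples: correlations of the deviations lay between −0.004 and 0.005.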

Other observations

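Some starts were open in all 15 DMSO lists of the 5 other lines and missing in only 1 of the 2 lines compared. Of 9147 starts open in all 15 lists, 8841 were open in both A375 and DU4475. In DU4475, 84 of them had no peak in any list while all 3 A375 lists had one, and in A375 the reverse held for 16. The 84 included 15 genes named ZNF, a name given to zinc finger proteins, of which 11 were on chromosome 19, among them ZNF134, ZNF264, ZNF304 and ZNF586. Over all A375-only starts, 57 of 638 were ZNF genes (8.93%), against 2 of 481 DU4475-only starts (0.416%) and 2.59% of all genes. The neighbours ZNF18 and MAP2K4 on chromosome 17 were both among the 84, as were FGFR1, NCAM1, EBF2, EBF3 and QKI. Of the 16 starts missing in A375, 6 were on chromosome X (37.5%), as were 8 of the 84 (9.52%) and 4.25% of all genes. Some of these genes share a peak, so the starts do not all stand for separate peaks. Among the 8, HMGN5 and SH3BGRL share a peak. Among the 6, NUP62CL and DNAAF6 share a peak with folds of 8.46, 6.47 and 4.98 in DU4475. PUDP and STS share a peak with folds of 14.1, 13.5 and 13.1 in DU4475, and PNPLA4, next along the chromosome in this set, had 14.8, 12.1 and 12.7. The others included CDKN2B, the chemokine receptor gene CXCR4 with 7.57, 8.90 and 7.56, and the Notch ligand gene JAG2 with 5.79, 5.12 and 6.17. These genes were picked after their values were seen.

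The separate regions were spread unevenly over the chromosomes. Chromosome 5 held 10.3% of those of A375 and 4.55% of those of DU4475, and chromosome 1 held 9.28% and 12.9%. The share of all peaks that lay on chromosome 5 was 6.43% to 6.83% in the A375 lists and 4.62% to 4.81% in the DU4475 lists, so part of this difference was present in the lists as a whole.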
